A study of Rattus norvegicus with 10 samples.

Results

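Chemokines are small secreted proteins that steer leukocytes and some other cells, and this account covers the genes that encode them and their receptors in the rat testis. A gene was taken where its only symbol in the array's annotation was Ccl, Cxcl, Xcl, Cx3cl, Ccr, Cxcr, Xcr, Cx3cr or Ackr followed by a number. That gave 53 of the 18166 named genes measured: 34 ligands, 17 receptors and 2 atypical receptors, each with 1 probe set. Ackr1, Ackr4 and Cxcl5 were not analysed here.

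RNA from whole testes was measured on 10 arrays, 1 per sample, and all animals were Zucker rats. The 4 normal obese samples were normally developed testes of obese fa/fa animals and the 4 under-developed samples were testes labelled as under developed, from animals of that same kind. The 2 normal lean samples were normally developed testes of lean rats. The labels state an age of 14 weeks and sexual maturity for every sample. They also give the model fa/fa, and obese animals in the treatment text, for the lean rats, so the genotype of the lean group is not settled by them. The fa allele is a germline loss of leptin receptor function, present in all cells of a homozygous animal. The titles call the samples biological replicates, but whether each came from its own animal is not stated, and the p-values then reflect only the variation among these samples.

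A chemokine binds glycosaminoglycans on cells and matrix and signals through a G protein-coupled receptor on the responding cell. Names follow the spacing of the first cysteines (CC, CXC, XC, CX3C), and atypical receptors take up chemokines without classical G protein signalling. In the testis the best known users of these signals are the resident macrophages of the interstitium and peritubular zone, and the stem cell niche, where Sertoli cells make CXCL12.

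Under-developed array 4 did not resemble the other arrays of its label, which bears on every result below. Across all genes the 6 normal arrays correlated with each other at r of 0.994 to 0.997. Mean r with those arrays was 0.856, 0.946 and 0.731 for under-developed arrays 1, 2 and 3, and 0.995 for array 4. The testis label was borne out by 8 spermatid markers, whose mean log2 level was 12.36 to 12.41 in normal obese and 12.35 to 12.40 in lean testes. Germ cell markers were low in arrays 1 to 3 and at the normal level in array 4, with mean log2 differences from the normal obese mean over 8 spermatid markers of -2.97, -0.74, -4.02 and -0.05. Each comparison is therefore given for all arrays and without under-developed array 4. That second fit is one of the leave-one-out fits and was chosen with earlier results of these data known. Array 4 was left out for its likeness to the normal arrays, so the p-values of that fit are too favourable. They are not tests of the under-developed label, and genes said to rise or fall without array 4 did so in arrays 1 to 3. All values are log2 units of RMA, a method that corrects background, normalizes between arrays and summarises probes, so a difference of 1 is a factor of 2. Levels of different genes cannot be compared on arrays.

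Promoter sequence is shown for 5 of the genes whose values are given next, 4 that were high in under-developed arrays 1 to 3 and Ccl27, which was low there. Each sequence is the 250 bases before the RefSeq transcription start in assembly GRCr8, written 5′ to 3′ on the gene's strand. The 5 genes were picked by hand and not by a rule, so they do not stand for the others. Capitals mark matches to TATAAA in all 4 of the high genes. In Cxcl10 they also mark matches to the kappaB consensus at 2 places, one of them read on both strands. The regions are chr14:13917921-13918170 (minus strand) for Cxcl13, chr19:10242821-10243070 (minus) for Cx3cl1, chr10:68883367-68883616 (minus) for Ccl6, chr14:15988816-15989065 (plus) for Cxcl10 and chr5:61741780-61742029 (minus) for Ccl27.
Cxcl13: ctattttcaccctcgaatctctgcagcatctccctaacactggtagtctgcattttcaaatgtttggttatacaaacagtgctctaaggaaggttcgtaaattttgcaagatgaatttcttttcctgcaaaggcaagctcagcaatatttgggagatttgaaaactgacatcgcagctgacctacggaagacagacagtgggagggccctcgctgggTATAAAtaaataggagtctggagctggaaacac
Cx3cl1: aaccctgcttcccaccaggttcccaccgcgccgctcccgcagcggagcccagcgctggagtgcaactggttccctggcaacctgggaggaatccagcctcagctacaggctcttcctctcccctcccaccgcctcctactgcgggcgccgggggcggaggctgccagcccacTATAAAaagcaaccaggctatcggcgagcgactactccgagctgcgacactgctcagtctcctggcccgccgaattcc
Ccl6: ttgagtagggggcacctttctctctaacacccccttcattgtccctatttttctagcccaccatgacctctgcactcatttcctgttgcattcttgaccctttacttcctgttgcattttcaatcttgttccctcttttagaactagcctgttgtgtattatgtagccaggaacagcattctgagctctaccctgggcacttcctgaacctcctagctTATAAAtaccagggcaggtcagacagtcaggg
Cxcl10: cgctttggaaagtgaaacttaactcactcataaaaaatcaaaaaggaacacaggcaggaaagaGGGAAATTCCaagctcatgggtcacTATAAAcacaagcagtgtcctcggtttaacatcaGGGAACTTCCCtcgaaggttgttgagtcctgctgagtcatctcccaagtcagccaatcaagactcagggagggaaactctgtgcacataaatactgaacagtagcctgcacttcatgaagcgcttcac
Ccl27: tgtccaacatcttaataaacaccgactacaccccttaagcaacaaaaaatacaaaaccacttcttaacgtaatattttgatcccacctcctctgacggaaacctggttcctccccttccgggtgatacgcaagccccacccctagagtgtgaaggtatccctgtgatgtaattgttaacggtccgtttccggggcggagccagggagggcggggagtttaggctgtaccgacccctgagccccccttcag

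The TATAAA match began 33 bases before the start in Cxcl13, 32 in Ccl6, 78 in Cx3cl1 and 162 in Cxcl10. The Ccl27 window held neither motif on either strand. RefSeq promoters (250 bases before and 50 after the start) were matched for 41 of the 53 genes. TATAAA was in 11 of these 41 (26.8%), against 14.2% of 33469 promoters of that length. The kappaB consensus was in 9 (22.0%) against 7.51%. Both strands were searched. Among the 18 promoters held for genes that rose in the test without under-developed array 4, 10 had TATAAA and 5 had the kappaB consensus. The kappaB consensus was also in the promoters of Ccl20, Ccr3, Cxcl2 and Cxcl6, and TATAAA in that of Ccl12, none of which passed that test. A match describes letters in a window and is not evidence of binding.

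With all arrays no gene of the family passed the test. limma's moderated test with Benjamini-Hochberg adjustment over 18166 genes called 0 of the 53 genes between under-developed and normal obese testes, and percent called was 0.0 over all genes, with a smallest adjusted p of 0.0702. At an unadjusted p under 0.05, 19 of the 53 were higher and 5 lower, against 24.4% and 22.3% of all genes (46.6% together). The median log2 difference was 0.14 over the 53 genes, 0.41 over the 34 ligands and 0.04 over the 17 receptors, beside 0.06 over all genes, and the difference between ligands and receptors was not tested. A fit with array weights, which lowers the weight of arrays far from their group, called 28 (21 higher, 7 lower) of the 53, beside 54.3% of all genes (28.4% higher, 25.9% lower).

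Without under-developed array 4, 28 of the 53 genes passed, 21 higher and 7 lower, beside 29.6% and 26.4% of all genes. Of the 34 ligands 17 rose and 5 fell, of the 17 receptors 3 rose and 2 fell, and Ackr3 rose while Ackr2 did not pass. The share called (28 of 53) is near the 56.0% called over all genes, so the count itself does not set these genes apart. The split between higher and lower depends on what the arrays are scaled to. Centred on 53 ribosomal protein genes it was 11 higher and 30 lower, beside 12.3% and 70.1% of all genes, and centred on 11 Sertoli cell markers it was 7 higher and 44 lower, beside 3.78% and 89.0%. Such centring lowers every gene of an array alike, so which genes change sign follows the size of their rise. Of the 21 that rose, centring on Sertoli markers left 9 above 0: Cxcl13, Cx3cl1, Ccl6, Ccl11, Cxcl12, Ccr1 and Cxcl9, which still passed, and Ccl2 (0.30, adjusted p = 0.369, limma) and Cxcr4 (0.17, adjusted p = 0.23), which did not. It turned the other 12 negative, and centring on ribosomal genes turned Ccl9, Ccr2, Cxcl1 and Xcl1 negative. In whole testis RNA, fewer cells of a type and less RNA per cell cannot be told apart.

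**Figure D1:**
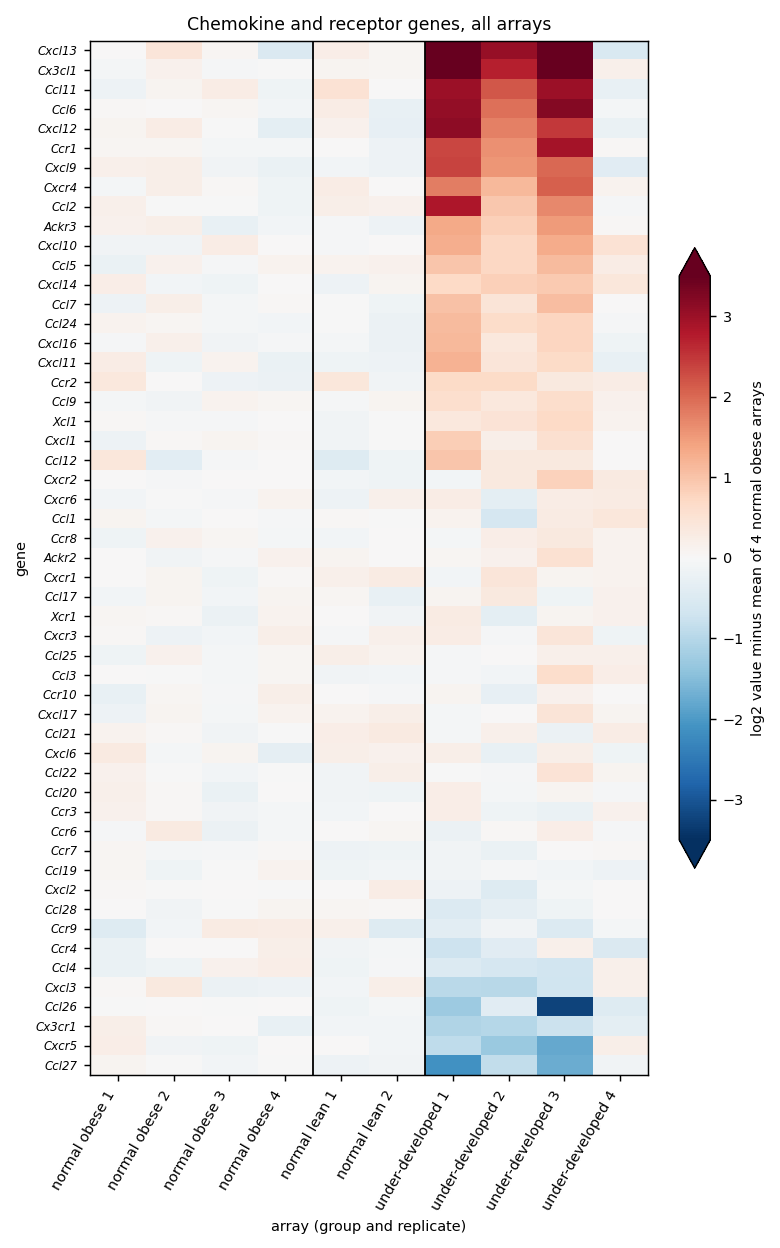
Log2 value minus the mean of the 4 normal obese arrays for each of the 53 genes (rows, ordered by the median of the 4 under-developed differences) in each array (columns, by group and replicate). Under-developed arrays 1 to 3 are red for Cxcl13, Cx3cl1, Ccl6, Ccl11 and Cxcl12 and blue for Ccl27 and Cxcr5, while array 4 lies within 0.53 of the normal obese mean for all 53.

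Cxcl13 and Cx3cl1 had the largest differences from normal obese testes among the ligands. Cxcl13, the ligand that draws B cells into lymphoid follicles, read 5.40, 5.82, 5.46 and 4.88 in normal obese arrays 1 to 4, 11.66, 8.45, 8.93 and 4.86 in the under-developed arrays, and 5.63 and 5.47 in the lean arrays. Arrays 1 to 3 of the under-developed group lay far above all normal arrays, array 1 most, and array 4 lay just below them, so the groups overlap. The fitted difference was 3.08 ± 1.15 (SE, 4 against 4, adjusted p = 0.0758, limma) with all arrays and 4.29 ± 0.67 (19.5-fold, adjusted p = 0.00078) without array 4. Its receptor Cxcr5 moved the other way, as given with the receptors.

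Cx3cl1 encodes fractalkine, a membrane-bound ligand that can be shed, whose receptor CX3CR1 marks monocytes and tissue macrophages. It read 6.26, 6.48, 6.30 and 6.32 in normal obese testes, 10.06, 9.07, 9.92 and 6.53 in under-developed testes, and 6.44 and 6.42 in lean testes. Every under-developed value was above every normal obese and lean value, though array 4 by little. The difference was 2.55 ± 0.67 (adjusted p = 0.0702, limma) with all arrays and 3.34 ± 0.22 (10.1-fold, adjusted p = 5.04e-05) without array 4.

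The homeostatic ligand Cxcl12, which retains stem and progenitor cells in their niches, read 7.06, 7.24, 6.95 and 6.63 in normal obese, 10.09, 8.73, 9.44 and 6.75 in under-developed and 7.12 and 6.68 in lean testes. Arrays 1 to 3 were above all normal arrays and array 4 lay among them. It rose by 2.45 ± 0.30 (5.47-fold, adjusted p = 0.000242, limma) without array 4. With all arrays the difference was 1.78 ± 0.61 (adjusted p = 0.0703).

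Ccl11 (eotaxin), which attracts eosinophils through CCR3, read 7.76, 8.04, 8.20 and 7.80 in normal obese, 10.95, 10.12, 10.94 and 7.69 in under-developed and 8.45 and 7.96 in lean testes. Ccl6, a rodent CC ligand, read 7.0, 6.98, 7.03 and 6.87, then 10.04, 8.89, 10.19 and 6.90, then 7.22 and 6.70 in the same order. In both genes the first 3 under-developed arrays were clear of all normal arrays, and array 4 lay among the normal arrays for Ccl6 and just below them for Ccl11. Ccl11 rose by 2.72 ± 0.23 (6.58-fold, adjusted p = 7.05e-05, limma) and Ccl6 by 2.74 ± 0.29 (6.66-fold, adjusted p = 0.000143) without array 4. With all arrays they differed by 1.97 ± 0.64 and 2.03 ± 0.63, each with an adjusted p of 0.0702.

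Ccl2 (MCP-1), the main monocyte attractant through CCR2, read 5.57, 5.38, 5.37 and 5.24 in normal obese, 8.23, 6.32, 7.07 and 5.36 in under-developed and 5.59 and 5.55 in lean testes. Its neighbour Ccl7 (MCP-3), also a CCR2 ligand, read 4.37, 4.74, 4.49 and 4.58, then 5.57, 5.0, 5.63 and 4.57, then 4.53 and 4.40. For both, arrays 1 to 3 exceeded every normal array and array 4 did not. Ccl2 rose by 1.82 ± 0.37 (adjusted p = 0.00295, limma) and Ccl7 by 0.85 ± 0.17 (adjusted p = 0.00254) without array 4, and centring on Sertoli markers turned the all-array difference of Ccl7 to -0.49. The third ligand of this axis, Ccl12, did not pass (single-array differences 0.97, 0.34, 0.35 and 0.01).

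Interferon-inducible ligands of CXCR3, which recruit activated T and NK cells, were Cxcl9, Cxcl10 and Cxcl11, and all 3 rose without array 4. Cxcl9 read 7.48, 7.51, 7.17 and 7.06 in normal obese, 9.66, 8.86, 9.31 and 6.92 in under-developed and 7.21 and 7.13 in lean testes. For Cxcl10 the values were 5.83, 5.82, 6.20 and 5.96, then 7.23, 6.67, 7.26 and 6.45, then 5.92 and 5.97. Array 4 lay below all 6 normal arrays for Cxcl9 and above all of them for Cxcl10. Without array 4 Cxcl9 rose by 1.97 ± 0.19 (adjusted p = 0.000112, limma), Cxcl10 by 1.10 ± 0.17 (adjusted p = 0.00067) and Cxcl11 by 0.78 ± 0.20 (adjusted p = 0.00892). Their receptor Cxcr3 did not pass, with differences of 0.25, -0.03, 0.42 and -0.15 in arrays 1 to 4. Centring on Sertoli markers turned Cxcl10 and Cxcl11 negative.

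Cxcl14, a ligand whose receptor is debated, had the smallest unadjusted p of the 53 genes with all arrays, at a difference of 0.71 ± 0.14 (adjusted p = 0.0702, limma). It read 6.09, 5.78, 5.71 and 5.88 in normal obese, 6.55, 6.71, 6.77 and 6.27 in under-developed and 5.69 and 5.97 in lean testes, with no overlap. Array 4 was included in that separation. Centring on Sertoli markers turned the difference to -0.42. The other ligands that rose without array 4 did so by 0.51 to 0.94. They were Ccl5 (RANTES, a T cell and monocyte attractant, 0.94), Ccl24 (eotaxin-2, 0.82), Cxcl16 (a transmembrane ligand of CXCR6, 0.76), Cxcl1 (a neutrophil attractant, 0.54), Ccl9 (a rodent CCR1 ligand, 0.52) and Xcl1 (lymphotactin, 0.51). The call of Cxcl1 was lost with repeated quantile normalization (adjusted p = 0.0614, limma).

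**Figure D2:**
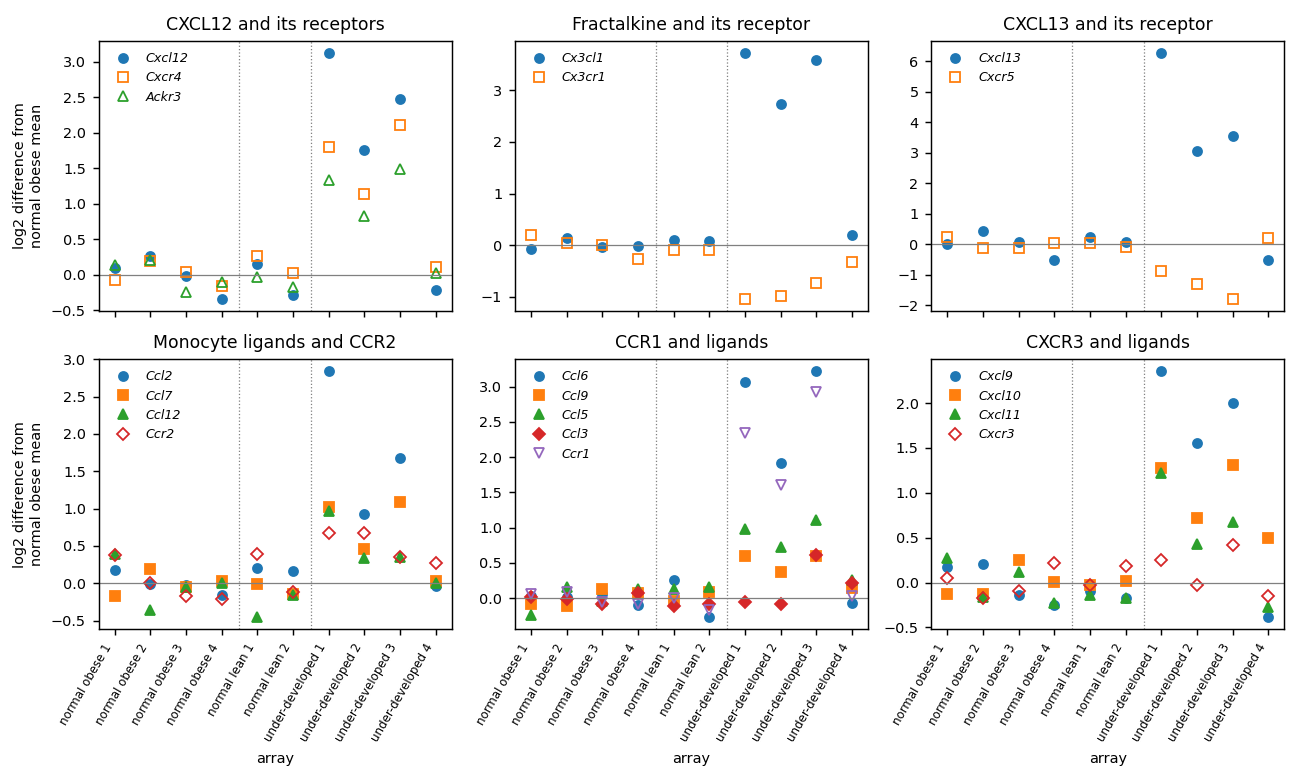
Log2 difference from the normal obese mean (vertical axis) in each array (horizontal axis), in panels of ligands (filled symbols) and their receptors (open symbols). In under-developed arrays 1 to 3 Cxcl12, Cx3cl1, Cxcl13, Ccl2, Ccl6 and Cxcl9 lie well above 0 together with the receptors Cxcr4, Ackr3 and Ccr1, Cx3cr1 and Cxcr5 lie below it, and Cxcr3 lies between -0.03 and 0.42.

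Of the receptors, Ccr1 and Cxcr4 were raised most. Ccr1, a receptor of monocytes and macrophages for CCL5 and related ligands, read 5.30, 5.32, 5.18 and 5.16 in normal obese, 7.58, 6.85, 8.16 and 5.27 in under-developed and 5.24 and 5.07 in lean testes. Cxcr4, the CXCL12 receptor, read 6.69, 6.96, 6.80 and 6.61, then 8.56, 7.90, 8.87 and 6.88, then 7.03 and 6.79. Arrays 1 to 3 lay above all normal arrays for both and array 3 was highest. Ccr1 rose by 2.29 ± 0.26 (4.89-fold, adjusted p = 0.000183, limma) and Cxcr4 by 1.68 ± 0.21 (3.2-fold, adjusted p = 0.000303) without array 4, while with all arrays the differences were 1.73 ± 0.52 and 1.29 ± 0.37.

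Ackr3, the atypical receptor that scavenges CXCL12, read 7.43, 7.49, 7.04 and 7.19 in normal obese, 8.62, 8.12, 8.77 and 7.32 in under-developed and 7.25 and 7.11 in lean testes. It rose by 1.21 ± 0.18 (adjusted p = 0.000583, limma) without array 4, so the ligand and both its receptors rose together there. With Sertoli centring the all-array difference turned from 0.92 to -0.21. Ccr2, the CCL2 receptor, rose by 0.56 ± 0.19 (adjusted p = 0.0292) without array 4. That call was lost with array median centring (adjusted p = 0.0536), repeated quantile normalization (0.114) and an offset of 50 (0.0504), and against the lean arrays (0.43, adjusted p = 0.146). Ackr2, which clears inflammatory CC chemokines, differed by 0.07, 0.15, 0.53 and 0.13 in arrays 1 to 4.

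Lower values were found for 2 receptors and 5 ligands. Cx3cr1, the fractalkine receptor, read 8.14, 7.99, 7.95 and 7.68 in normal obese, 6.90, 6.95, 7.20 and 7.61 in under-developed and 7.84 and 7.85 in lean testes. All 4 under-developed values, array 4 included, were below all normal values, and the difference was -0.78 ± 0.17 with all arrays (adjusted p = 0.0702, limma) and -0.93 ± 0.13 without array 4 (adjusted p = 0.000502). Cxcr5, the CXCL13 receptor of B cells and follicular T cells, read 7.22, 6.87, 6.85 and 7.01, then 6.11, 5.69, 5.19 and 7.20, then 7.01 and 6.90. Array 4 stayed at the normal level, and without it Cxcr5 fell by 1.32 ± 0.20 (adjusted p = 0.000745). In 2 axes the ligand rose and its receptor fell: fractalkine and CXCL13.

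Ccl27, known as an epithelial ligand of CCR10, read 8.31, 8.19, 8.12 and 8.20 in normal obese, 6.09, 7.35, 6.46 and 8.07 in under-developed and 8.02 and 8.08 in lean testes. It fell by 1.58 ± 0.25 (adjusted p = 0.00092, limma) without array 4 and overlaps Il11ra1, whose own differences in arrays 1 to 4 were 0.15, -0.28, 0.36 and -0.10. Ccl26 (eotaxin-3) read 9.91, 9.94, 9.93 and 9.95, then 8.67, 9.53, 6.70 and 9.49, then 9.77 and 9.87. Array 4 was among those below every normal array for Ccl26, at -0.44 from the normal obese mean, and the loss in array 3 was the deepest. It fell by 1.63 ± 0.54 (adjusted p = 0.029) without array 4. Against the lean arrays that adjusted p was 0.0806, so the call was lost there. Cxcl3 (-0.87), Ccl4 (-0.58) and Ccl28 (-0.31) also fell without array 4.

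The remaining 25 genes did not pass even without under-developed array 4, with fitted differences of -0.32 to 0.55 and single-array differences of -0.73 to 0.97. They include the neutrophil receptors Cxcr1 and Cxcr2, the eosinophil receptor Ccr3, the CCR7 ligands Ccl19 and Ccl21 with Ccr7 itself, and the mucosal pairs Ccl20 and Ccr6, and Ccl25 and Ccr9. Probe sets of 20 of the 53 genes were below the 25th percentile of gene means and 42 below the median, where arrays give little contrast, and a gene that does not pass there may still differ.

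Counted array by array, 15 of the 53 genes were at least 1 log2 unit above the normal obese mean in under-developed array 1, 8 in array 2, 13 in array 3 and 0 in array 4, against 15.5%, 7.56%, 19.2% and 0.0385% of all genes. Those at least 1 unit below numbered 3, 1, 3 and 0, against 15.6%, 6.18%, 16.8% and 0.0055%. In 2 or more arrays 12 were higher and 3 lower, against 14.5% and 14.6%. These 15 became 9 without array 1 and 8 without array 3, where the shares of all genes are not given here. Just outside that limit lay Ccl5 (0.99, 0.72, 1.11 and 0.26) and Cx3cr1 (-1.04, -0.99, -0.75 and -0.33), and just inside it Ccl7 (1.02, 0.45, 1.09 and 0.02). Under-developed and normal obese arrays did not overlap for 6 higher genes (Ccl5, Ccl9, Cx3cl1, Cxcl10, Cxcl14 and Xcl1) and 3 lower (Ccl26, Ccl27 and Cx3cr1), beside 7.44% and 10.4% of all genes. Arrays 1 to 3 all lay above the 6 normal arrays for 20 genes and all below for 8, beside 28.7% and 26.7% of all genes. Array 4 lay inside the range of the 6 normal arrays for 33 of the 53, above it for 12 and below it for 8, beside 17.8% and 18.6% of all genes above and below.

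Array 1 and array 3 shared the top place among the 21 genes that rose without array 4: 10 were highest in array 1, 10 in array 3 and 1 in array 2. Over all 5381 genes that rose, 28.3% were highest in array 1 and 69.4% in array 3. Among the 17 ligands of that set 10 peaked in array 1, including Cxcl13, Ccl2 and Cxcl12, and none of the 3 receptors and 1 atypical receptor did. A high place of array 1 was not particular to the family. Macrophage markers, described below, had mean differences of 2.03 in array 1 and 1.97 in array 3. Means of the endothelial, fibroblast, Sertoli and Leydig marker lists were highest in array 3. Array 2 was the closest to normal of the 3 for 18 of the 21 (85.7%), beside 88.5% of all genes that rose.

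Genes of this family lie in clusters, and neighbours did not all move alike. Neighbours here have at most 3 protein-coding genes between them in the GRCr8 annotation. Cxcl9, Cxcl10 and Cxcl11 lie together and all rose without array 4, as did Ccl2, Ccl7 and Ccl11, while Ccl12 and Ccl1 beside them did not pass. Ccl5, Ccl9 and Ccl6 rose, Ccl3 did not pass and Ccl4, next to it, fell. Ccl24 rose and the adjoining Ccl26 fell. Cx3cl1 rose between Ccl17 and Ccl22, neither of which passed. Of the run Ccr9, Cxcr6, Xcr1, Ccr1, Ccr3 and Ccr2, only Ccr1 and Ccr2 rose. Near-identical members of these clusters can share probes, and which probes each set holds was not analysed here. The overlapping genes Art3 (Cxcl10 and Cxcl11) and Zmynd15 (Cxcl16) had differences of opposite sign to theirs in arrays 1 to 3, at -1.81 and -1.79 in array 1.

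**Figure D3:**
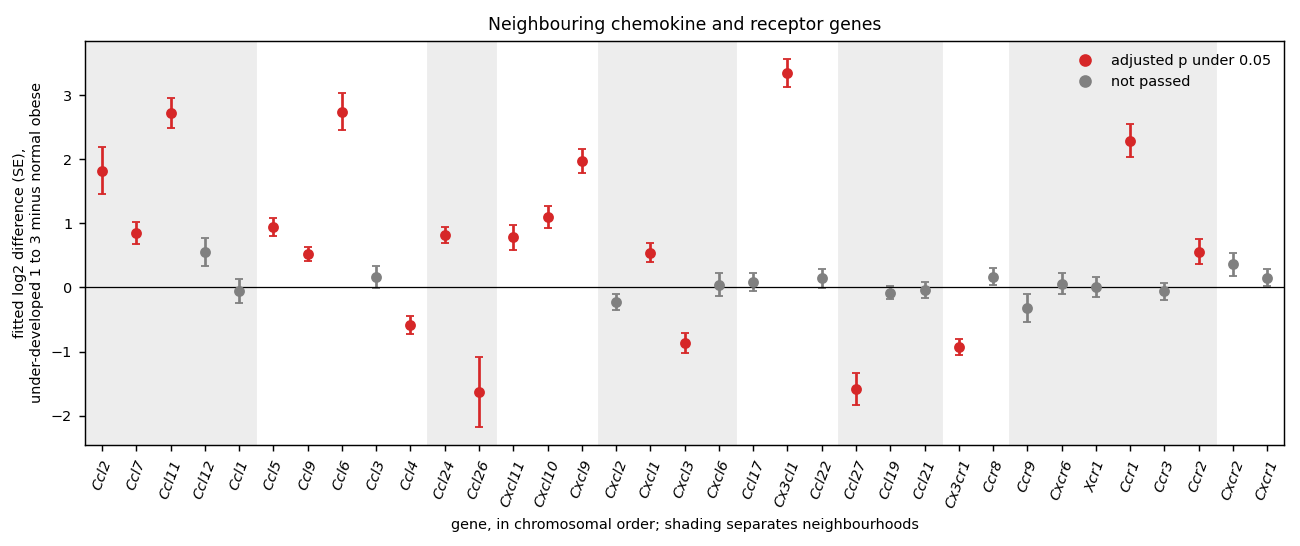
Fitted log2 difference with SE between under-developed arrays 1 to 3 and normal obese arrays (vertical axis) for genes with a neighbour in the family, in chromosomal order with shading by neighbourhood. Red points have an adjusted p under 0.05, and Ccl6 and Ccl4, or Ccl24 and Ccl26, lie on opposite sides of 0.

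Genes outside the name rule that act with the family moved as follows without array 4, where 29.6% of all genes rose and 26.4% fell, and none passed with all arrays. Among 13 other chemokine-like ligands and receptors 5 rose and 3 fell (all-array median 0.22, turned to -0.29 and -0.91 by ribosomal and Sertoli centring). Rarres2 (chemerin) rose by 3.12 (adjusted p = 6.41e-05, limma), Pf4 (CXCL4, a platelet chemokine) by 2.01 (adjusted p = 0.000815), and Cklf fell by 2.02 (adjusted p = 0.00175). Among 24 genes of receptor signalling 18 rose and 2 fell, with the engulfment and motility adaptor Elmo1 at 2.67, the G protein regulator Rgs18 at 2.24 and the Src-family kinase Lyn at 1.77. In that list Rgs19 and the receptor kinase Grk3 fell, by 1.25 and 1.06. List directions depend on the scaling too: with all arrays the median of the signalling list was 0.58 as deposited, 0.06 with ribosomal centring and -0.56 with Sertoli centring.

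Of 19 genes listed for the control of chemokine transcription 11 rose and 1 fell. The list holds inducers but also the NF-kappaB inhibitor Nfkbia, which is counted among those that rose (2.65). Its all-array median of 0.62 became 0.11 and -0.51 under those centrings. The receptors Tnfrsf1a and Il1r1 rose by 3.33 and 2.85, and Nfkb1, an NF-kappaB subunit, by 2.90. Cytokines of the list, named after their values were seen, differed among themselves. Csf1, the macrophage growth factor, rose by 2.77 (adjusted p = 0.000114, limma) and Ifng fell by 0.63 (adjusted p = 0.0117), while Il1b (0.22), Tnf (0.32) and Il6 (0.13) did not pass. Of 11 genes listed for chemokine cleavage and binding 7 rose and 2 fell (median 0.83, then 0.32 and -0.30). Those that fell were Mmp9 (-0.57, adjusted p = 0.00168, limma) and Vcan (-0.45), while Dpp4 (0.18) and Sdc1 (0.21) did not pass. Those that rose include Ext1, Hs2st1 and Ndst1 (1.57, 1.70 and 0.87). These encode enzymes that make heparan sulfate and do not themselves cleave or bind chemokines. The proteoglycans Sdc4 and Bgn rose by 2.92 and 2.90, and the macrophage elastase Mmp12 by 2.29 (adjusted p = 0.0484), with 4.78 in array 3 against 1.89 and 0.19 in arrays 1 and 2.

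Markers of some cell types moved along with these genes and those of others did not, and their part in the results was not tested. Without array 4, where 29.6% of all genes rose and 26.4% fell, 15 of 16 macrophage markers rose and 1 (Aif1) fell. Lyz2 rose by 3.35, Fcer1g by 2.96 and Cd163 by 2.86. The mean level of the 16 markers spanned 6.65 to 7.04 in normal obese, 6.80 to 8.90 in under-developed and 6.61 to 6.83 in lean testes. Endothelial markers rose in 6 of 6, fibroblast and matrix markers in 8 of 8, Sertoli markers in 9 of 11 (Amh fell) and Leydig markers in 5 of 7, with array 1 mean differences of 1.15, 1.68, 1.62 and 1.41. Spermatocyte and spermatid markers fell in all 8 of each list. T and NK markers rose in 7 of 15 and fell in 2 (Lck and Cd28), with mean differences of 0.43, 0.15, 0.49 and 0.08 in arrays 1 to 4, and Cd3e differed by 0.00 (not passed). B cell markers rose in 2 of 6 with 1 lower (Ms4a1), and granulocyte markers in 0 of 10, with 3 lower. In lists this short, counts near the shares of all genes, such as those of the B cell markers, do not set a list apart. Epididymis and duct markers, which would mark tissue beside the testis, rose and fell in 0 of 4, and mast cell markers in 0 of 6. Peritubular markers rose in 3 of 4, dendritic cell markers in 1 of 7 with 1 lower, adipocyte markers in 1 of 5 with 2 lower, and red blood cell markers in 1 of 2. With all arrays the macrophage list's median was 1.56 as deposited, 1.05 with ribosomal and 0.43 with Sertoli centring, while that of the T and NK list went from 0.28 to -0.24 and -0.86. Sertoli centring also turned the endothelial (-0.40), fibroblast (-0.04), Leydig (-0.05) and peritubular (-0.12) medians negative.

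**Figure D4:**
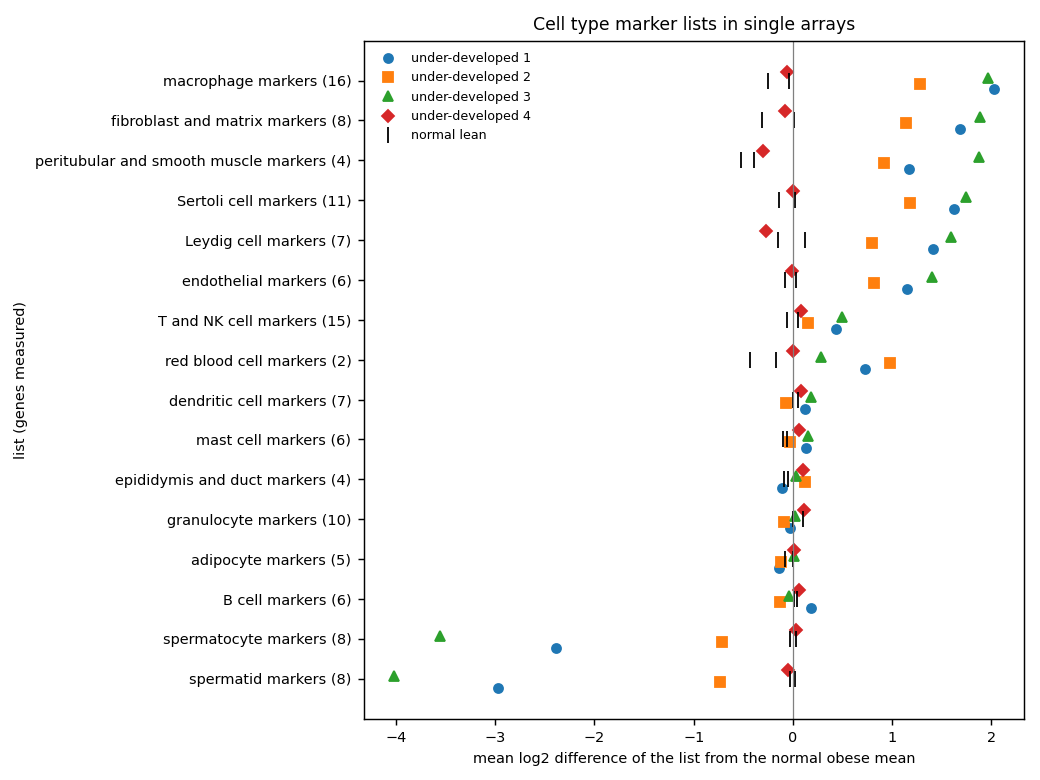
Mean log2 difference of each cell type marker list from the normal obese mean (horizontal axis) in under-developed arrays 1 to 4 (symbols) and the lean arrays (ticks), with the number of genes measured in parentheses. Spermatid and spermatocyte lists lie far below 0 and macrophage, fibroblast, Sertoli and Leydig lists above it in arrays 1 to 3, and array 4 sits near 0 throughout, between -0.30 and 0.11.

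Between normal testes of obese and lean rats no gene of the family passed the test. limma called 0 of the 53 (adjusted over all genes, percent called 0.0), and 0 at an unadjusted p under 0.05, beside 0.44% of all genes. With array weights 3 of the 53 had an unadjusted p under 0.05, beside 6.95% of all genes, and 2 did in a fit of the 2 groups alone, beside 6.28%. Fitted differences, obese minus lean, ran from -0.27 to 0.30. The smallest p-values belonged to Ccl21, a lymph node homing ligand (-0.27 ± 0.16), Cxcr1, a neutrophil receptor (-0.23 ± 0.15), and Ccr7, the receptor for CCL19 and CCL21 (0.16 ± 0.12), each with an adjusted p of 1.0. Obese and lean arrays did not overlap for 5 higher and 3 lower genes, beside 7.70% and 7.27% of all genes. No gene of the family was 1 log2 unit above or below the normal obese mean in either lean array, beside 0.033% and 0.011% of all genes above and below in lean array 1 and 0.0165% and 0.0606% in lean array 2. A group of 2 lean arrays limits what can be seen.

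The under-developed testes were also set against the lean arrays, a comparison that shares the under-developed arrays with the first. With all arrays 0 of the 53 passed (percent called 0.0, smallest adjusted p 0.154) and 17 had an unadjusted p under 0.05, beside 31.8% of all genes. Without array 4, 27 passed, beside 48.8% of all genes, with 21 higher and 6 lower, beside 25.6% and 23.2%. Cxcl13 rose by 4.13 ± 0.80 (adjusted p = 0.00313, limma), Cx3cl1 by 3.25 ± 0.26 (adjusted p = 0.000157), and Cx3cr1 fell by 0.83 ± 0.16 (adjusted p = 0.00284).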

How the data were processed

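Total RNA of 10 rat testes was extracted with Trizol and labelled with the Affymetrix WT PLUS kit, per the labels' protocols. The values deposited by the authors are log2 expression values per probe set, made with RMA per the submitters' processing notes. RMA settings, versions and the array's genome build are not given in the sources used here. Such normalization takes the arrays' distributions to be alike, so a changed tissue make-up moves other genes relative to it. Of 36685 probe sets, 18511 carried 1 symbol, 575 several and 17599 were unnamed here. A gene with several probe sets was represented by the one of highest overall mean, giving 18166 genes.

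A model with 3 group means over all 10 arrays was fitted with limma 3.58.1 (lmFit, eBayes) in R 4.3.3. P-values were adjusted by Benjamini-Hochberg over all genes, with a threshold of 0.05. The same fit without under-developed array 4 was given beside it. Array number limits the precision. Summaries and figures used Python 3.11.15, pandas 2.3.3 and matplotlib 3.10.9. The genes and lists were chosen with earlier results of these data known. Genes described in full were those at least 1 log2 unit from the normal obese mean in at least 2 under-developed arrays, plus the 3 smallest p-values of each comparison, and up to 3 genes per list by size of difference. The limma fit alone was tested on simulated data. There every array had the spread of the normal obese arrays and all under-developed arrays shifted alike. That test therefore does not cover an array such as under-developed array 4.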

Additional observations from a re-analysis of the deposited data

How the results depend on the processing

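With all arrays the count of called genes was 0 in each comparison under most alternatives. For under-developed against normal obese testes it was 36 (2 higher, 34 lower) with Sertoli centring (76.2% of all genes) and 28 with array weights (54.3%), and ranged from 0 to 28 when 1 array was left out (28 without under-developed array 4, 56.0% of all genes). Against lean testes it was 27 with array weights (53.0% of all genes) and 0 to 27 when 1 array was left out. The 28 genes called without array 4 became 51 with Sertoli centring (92.8% of all genes), 16 with array weights (34.2%) and 11 of 11 tested after leaving out genes under the median (80.0%). That filter uses means over all arrays, so genes can pass it through the arrays where they are high, and its counts and medians support nothing. The median difference over the family (0.14 against normal obese) was -0.37 with ribosomal and -0.99 with Sertoli centring, 0.01 after quantile normalization, 0.41 and 1.29 without genes under the 25th percentile or the median, and 0.11 to 0.25 when 1 array was left out. Against lean testes (0.18) it was 0.08 with array median centring, -0.44 and -1.02 with ribosomal and Sertoli centring, and 0.48 and 1.14 after the 2 filters. For obese against lean (0.03) it was -0.07, -0.03, 0.09 with quantile normalization and 0.10 with the median filter. The 15 genes past 1 log2 in 2 or more arrays were 36 with Sertoli centring (4 higher, 32 lower). They were 9 with the median filter and 8 to 18 when 1 array was left out. The shares of all genes past that limit under these settings are not given here, so these counts do not set the family apart. With Sertoli centring the all-array test against normal obese testes called 1.28% of all genes higher and 74.9% lower. Ackr3, Ccl7, Cxcl10 and Cxcl14 turned to -0.21, -0.49, -0.19 and -0.42 with Sertoli centring. Ccl21 (0.04) turned to -0.04, -0.48, -1.09, -0.09 and -0.03 with array median, ribosomal, Sertoli, quantile and array weight settings, and to between -0.04 and 0.12 when 1 array was left out. Cxcr1 (0.14) turned to -0.37 and -0.99 with ribosomal and Sertoli centring. Centring put the median difference of all genes (0.06 as deposited) at -0.45 (ribosomal) and -1.07 (Sertoli). The cause of these changes was not tested.

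With the replicate number as a block, 0 genes were called in each comparison with all arrays. Without array 4 it called 26 of the 53 between under-developed and normal obese testes, beside 47.8% of all genes. Same-numbered arrays of normal obese and under-developed testes had deviations correlating at 0.01 to 0.26, so the numbers were not taken to pair samples. Limits include dim probe sets, the 2 lean arrays, under-developed array 4, and a tissue make-up that changes with the group, on which the scaling bears.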
